A study of Xenopus laevis with 8 samples.

Results

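The genes described here are 109 of the 35649 genes counted in Xenopus laevis gastrula explants, those with far more RNA in untreated ectoderm than in untreated marginal zone. They were chosen by their values in the untreated explants: a mean of at least 5 CPM (counts per gene, scaled to the library total) in control ectoderm, and a ratio of control ectoderm to control marginal zone of at least 6 after 0.5 CPM was added to each mean. Of 114 genes past both thresholds, 5 were left out because their symbols start with krt, dnah, foxi, grhl or tfap2, families set aside by the rule. The difference between the control tissues therefore chose the members and is given as a description, with no test. All 109 members passed the filter on low counts that left 22241 genes for testing. A symbol other than a LOC identifier exists for 73 of them, placeholders such as MGC84586 and XB22063249.S included. The other 36 carry only a LOC identifier.

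Ectoderm explants of the frog gastrula, or animal caps, are the tissue that makes epidermis when left alone, and the marginal zone is the equatorial belt that makes mesoderm. The embryonic epidermis of Xenopus is a mucociliary sheet: goblet and small secretory cells release mucus and other defence proteins, multiciliated cells move the fluid, and ionocytes regulate its ions. Pinhead is a secreted protein made in the gastrula, and the study asked what its gain in ectoderm and its loss in marginal zone do to gene expression. X. laevis is allotetraploid, so most genes have a homeolog on each subgenome, marked L (long) and S (short).

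There were 4 groups of 2 samples each. Control ectoderm was untreated and labelled stage 11. Flag-Pinhead ectoderm, also stage 11, had received 1.5 ng of RNA for an epitope-tagged Pinhead. Control marginal zone was untreated and labelled stage 10.5, although the series text gives stage 11. PhSpMo marginal zone, labelled stage 10.5, came from embryos given 40 ng of the MO oligonucleotide PhSpMo in each blastomere at the 4-cell stage. The controls are labelled untreated, so injection as such and either treatment cannot be told apart. Stage and tissue cannot be told apart in any comparison of ectoderm with marginal zone. In explants, fewer cells of a type and less RNA per cell cannot be told apart. No label ties the 2 samples of a group to separate clutches, so all p-values reflect only the spread among these libraries, which may be technical. The edgeR fit takes 1 spread per gene, shared by all groups. The Flag-Pinhead samples differed from each other more than the samples of either control did. Standard errors and p-values with Flag-Pinhead RNA may therefore understate the spread of that group. Values after ± are standard errors of edgeR's log2 fold changes.

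Total counts ran from 12551618 to 19719311 per sample. Over whole library totals, the pnhd.L gene stood at 16.1 and 18.3 CPM in control ectoderm. In the Flag-Pinhead libraries, injected RNA included, it stood at 31777 and 59876 CPM. It stood at 93.7 and 89.2 CPM in control marginal zone and at 58.8 and 55.01 CPM with PhSpMo. Sums of early mesoderm and of ectoderm markers followed the tissue labels. In control ectoderm 14 early mesoderm genes summed to 33.5 and 35.7 CPM, and in control marginal zone to 2458 and 2361 CPM. The sums of 17 ectoderm and epidermis genes were 4097 and 4184 against 2697 and 2644 CPM. Lists of epidermal cell types did not all do so. Multiciliated cell markers summed to 109 and 112 against 172 and 179 CPM, and ionocyte markers to 65.8 and 71.7 against 98.1 and 97.2 CPM. Goblet and small secretory cell markers summed to 25.7 and 22.1 against 17.7 and 18.2 CPM. The 2 PhSpMo libraries agreed within sampling noise, while the 2 columns named for each of them did not, so the assignment of columns to samples is uncertain. PhSpMo was counted as 1 sample in all tests, with a spread taken from the other groups, and its library values are given as labelled.

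The members covered a wide range of levels. Their means in control ectoderm ran from 5.18 to 1664 CPM, with a median of 13.7 CPM, and in control marginal zone from 0 to 162 CPM, with a median of 0.793 CPM. The ratio used by the rule ran from 6.01 to 67.7, with a median of 9.08. Just inside that threshold were socs3l.L at 6.01, LOC108716513 at 6.04 and syt1.L at 6.05, and just outside were LOC108708131 at 5.99, LOC108716516 at 5.90 and gatd3alc.2.L at 5.85. Just above the level threshold were ubl5.L at 5.18, grap2.L at 5.30 and LOC108696785 at 5.43 CPM, and just under it dock2.L at 4.91, LOC108709557 at 4.79 and rasgrp2.S at 4.75 CPM.

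**Figure D1:**
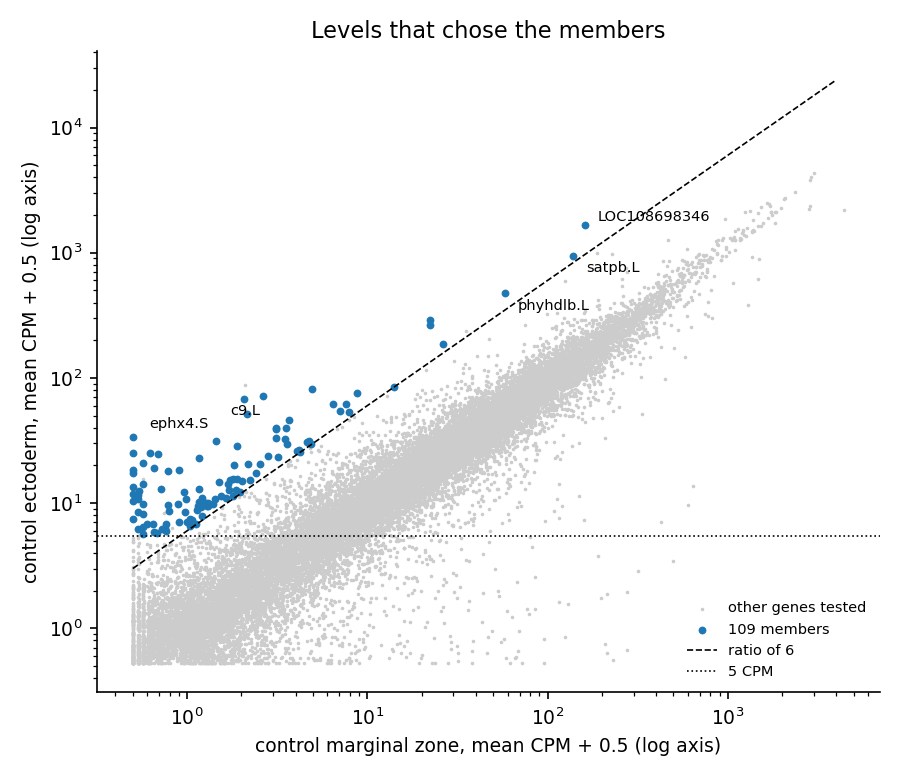
Mean level of each tested gene with counts in control ectoderm, as CPM + 0.5, in control marginal zone (horizontal, log axis) against control ectoderm (vertical, log axis); blue points are the 109 members, and the lines mark the ratio of 6 and the 5 CPM minimum. The members fill the upper left edge from 5.18 to 1664 CPM, and the 5 genes left out by symbol are among the grey points above both lines.

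The ectoderm excess of the members was also present in the treated explants, which the rule did not use. Flag-Pinhead ectoderm was higher than PhSpMo marginal zone for 109 of 109 members (edgeR's quasi-likelihood test, adjusted p under 0.05), against 32.2% of all genes tested. The median log2 fold change of the members in this comparison was 5.01, with a range of 1.66 to 13.4, and the median over all genes tested was 0.03. The difference was at least 6-fold for 103 members and for 5.67% of all genes tested. The 19 members with at most 3 counts in each marginal zone group passed the filter on low counts only through ectoderm libraries. So did others with few counts there, such as LOC108709508, with 5 counts in controls and 11 with PhSpMo. How many did so was not counted. The part of all such members in these counts is a description. The highest value, 13.4, belongs to XB22063249.S, which had 0 counts with PhSpMo, so it is not a measured fold. Treatment differs along with tissue and stage in this comparison, so the 3 cannot be told apart. Summed over the members, the libraries held 5740 and 6054 CPM in control ectoderm, 6305 and 5182 CPM with Flag-Pinhead RNA, 585 and 576 CPM in control marginal zone, and 204 and 213 CPM with PhSpMo. The sums of control and Flag-Pinhead ectoderm overlapped, and the PhSpMo sums lay under both control sums. The 6 most abundant members and irg1.L, described below and set apart after their values were seen, weigh heavily in these sums. The other 102 summed to 2029 and 2043 CPM in control ectoderm and to 3054 and 2784 CPM with Flag-Pinhead RNA, without overlap. In marginal zone they summed to 150.4 and 149.8 CPM in controls and to 135 and 138 CPM with PhSpMo.

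Flag-Pinhead RNA moved members in both directions. Of the 109 members, 24 rose, 20 fell and 65 were not called by edgeR's quasi-likelihood test with Benjamini-Hochberg adjustment at 0.05. Among all genes tested 15.5% rose and 11.9% fell, and among those with at least 5 CPM in control ectoderm 14.1% rose and 17.4% fell, while the members' shares were 22.0% and 18.3%. The share that fell was thus close to that of genes of like level. The median log2 fold change of the members was -0.02, against 0.00 over all genes tested, and 79 members, or 72.5%, differed by less than 1.5-fold, against 79.0% of all genes tested and 91.2% of those with at least 5 CPM in control ectoderm. Called rises of at least 2-fold were found for 10 members and called falls of that size for 3, against 7.23% and 0.877% of all genes tested. Among genes with at least 5 CPM in control ectoderm these shares were 2.36% and 0.636%. The 10 rises include post3.S and XB22063249.S, which overlap in RefSeq. They also include LOC108703072, which RefSeq does not place and whose LOC number adjoins theirs. These rises may thus not be separate evidence. Both Flag-Pinhead libraries lay above both controls for 24 members, against 26.6% of genes tested, and below them for 38, against 35.3% of genes tested and 45.1% of those with at least 5 CPM in control ectoderm. With DESeq2 17 members rose and 12 fell, against 10.1% and 7.40% of all genes tested. The control ectoderm libraries of this comparison also chose the members.

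PhSpMo lowered more members than it raised. In marginal zone 26 members fell, 5 rose and 78 were not called by the same test. Among all genes tested 10.5% fell and 8.22% rose, and the members' shares were 23.9% and 4.59%. The median log2 fold change was -0.50, against 0.00 over all genes tested, and it was -0.26 without control marginal zone sample 2. Of the members, 19 had at most 3 counts in each marginal zone group and could not be seen to fall. Among the other 90, 26 fell, or 28.9%, against 10.7% of all genes above that floor, and 5 rose, against 8.38%. Some of the 90, such as LOC108709508, also passed the filter on low counts only through ectoderm libraries. Among the 48 members with at least 1 CPM in control marginal zone 21 fell and 3 rose, against 12.2% and 9.04% of all genes at that level. Among the 7 with at least 10 CPM there, 6 fell and 0 rose, against 15.6% and 10.8%. These 6 are the abundant genes described below, of which 4 are neighbours in the gene order, so they are not separate evidence. Fewer members were called without control marginal zone sample 2, and fewer rises were called without PhSpMo sample 1. Both refits also called fewer genes over all genes tested. The median log2 fold change of the members was -0.41 without control marginal zone sample 1. Why the counts of members were lower was not tested. The control marginal zone libraries of this comparison also chose the members.

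**Figure D2:**
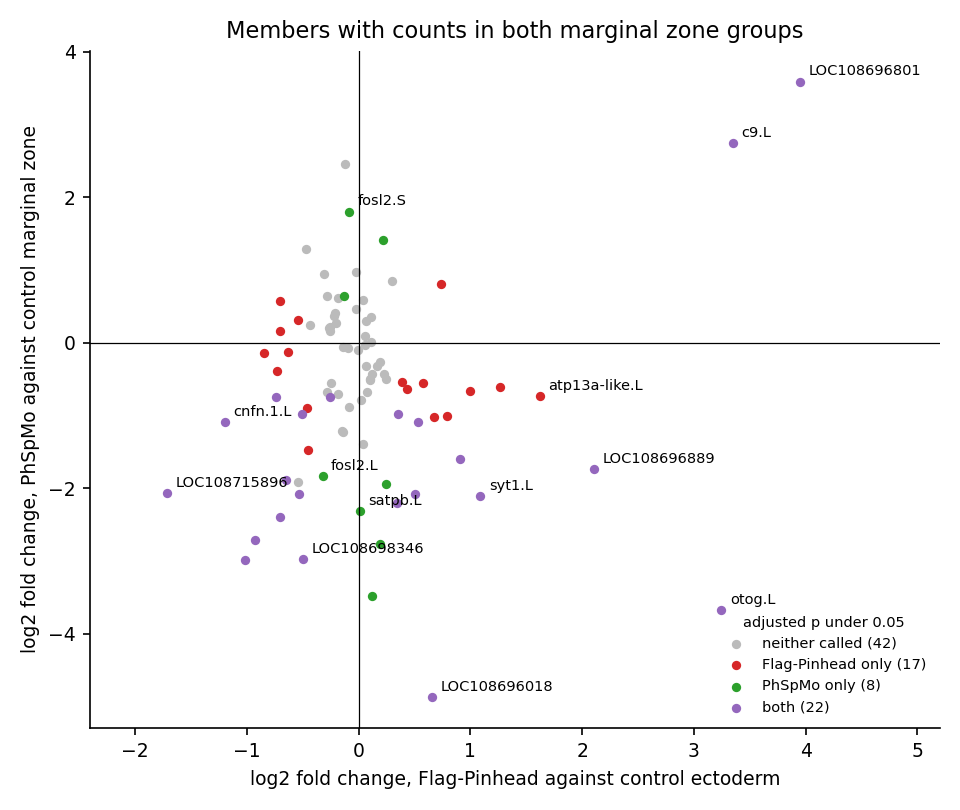
Log2 fold change with Flag-Pinhead RNA (horizontal, against control ectoderm) and with PhSpMo (vertical, against control marginal zone) for the 89 members above the floor of 3 counts in marginal zone and with counts in both of its groups, coloured by the edgeR calls. Members that fell with PhSpMo lie on both sides of the vertical line, and c9.L and LOC108696801 stand alone at the upper right.

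In both arms together, 53 members were called at least once and 56 in neither, against 63.1% of all genes tested that were called in neither. Both treatments lowered 11 members, against 1.81% of all genes tested, and 9 others rose with Flag-Pinhead RNA and fell with PhSpMo, against 3.52%. The 11 include LOC108698345, LOC108698346, phyhdlb.L and irg1.L, which are neighbours in the gene order and so are not separate evidence. Among the members c9.L and LOC108696801 rose with both, against 2.13% of all genes tested, and 0 fell with the RNA and rose with PhSpMo, against 1.68%. These last 2 counts are near the shares over all genes. The 2 arms share no sample.

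Cell type markers moved in both arms as well. The 17 ectoderm and epidermis markers summed to 2362 and 2205 CPM with Flag-Pinhead RNA, where 1 rose and 15 fell, and to 2095 and 2081 CPM with PhSpMo, where 1 rose and 13 fell. Of 13 early mesoderm markers tested, 13 rose with Flag-Pinhead RNA, to sums of 774 and 813 CPM, and 9 fell with PhSpMo, to 1939 and 2008 CPM. Of 12 endoderm markers 5 rose with the RNA and 11 fell with PhSpMo. Of 10 neural plate markers 8 rose with the RNA and 7 fell with PhSpMo. Of 7 dorsal organizer markers 4 rose with the RNA and 0 were called with PhSpMo. Of 9 multiciliated cell markers 4 rose and 2 fell with the RNA and 1 fell with PhSpMo. The 10 ionocyte markers summed to 65.8 and 71.7 CPM in control ectoderm and 89.7 and 107 CPM with the RNA, where 5 rose and 1 fell, and to 98.1 and 97.2 CPM in control marginal zone and 221 and 232 CPM with PhSpMo, where 4 rose and 1 fell. Of the 7 goblet and small secretory cell markers tested, which include the member otog.L, 3 rose with the RNA and 3 fell with PhSpMo. The part of these cell types in the changes of the members was not tested.

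The 6 members above 100 CPM in control ectoderm all fell with PhSpMo, and 4 of them fell with Flag-Pinhead RNA. They are LOC108698346, satpb.L (LOC398207.S in the table), phyhdlb.L (LOC100490918.L), LOC108698345, XB22063314.L (LOC108705686) and XB22063314.S (LOC108705666), a group set apart after its values were seen. The next member by level, socs3l.L at 84.2 CPM, was not called in either arm. The 6 made up 63.9% and 65.5% of the members' summed CPM in control ectoderm, 51.1% and 45.8% with Flag-Pinhead RNA, 73.7% and 73.5% in control marginal zone, and 33.3% and 34.8% with PhSpMo. Of the other 103 members, 20 fell with PhSpMo. Over all genes tested 10.5% fell with PhSpMo and 11.9% with the RNA. Among genes with at least 20 CPM in control ectoderm these shares were 17.5% and 22.1%.

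LOC108698346, the most abundant member, stood at 1611 and 1717 CPM in control ectoderm and 1310 and 962 CPM with Flag-Pinhead RNA. In marginal zone it stood at 171 and 153 CPM in controls and 21.1 and 22.1 CPM with PhSpMo. Neither pair overlapped, and the gap was wider with PhSpMo. Its log2 fold change was -0.50 ± 0.09 (adjusted p = 7.29e-05) with the RNA, a call lost with DESeq2 (adjusted p = 0.0857), and -2.97 ± 0.14 (adjusted p = 7.25e-14) with PhSpMo.

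For satpb.L the ectoderm values overlapped, with 894 and 996 CPM in controls and 1051 and 787 CPM with Flag-Pinhead RNA. Its log2 fold change there was 0.01 ± 0.09 (adjusted p = 0.94), but without Flag-Pinhead sample 1 it was -0.24 with an adjusted p of 0.00036. In marginal zone satpb.L stood at 132 and 145 CPM in controls and 29.1 and 29.6 CPM with PhSpMo, pairs that lie far apart, and fell with a log2 fold change of -2.32 ± 0.14 (adjusted p = 1.91e-12).

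phyhdlb.L stood at 456 and 489 CPM in control ectoderm and 279.6 and 199 CPM with Flag-Pinhead RNA, where it changed by -0.93 ± 0.09 (adjusted p = 1.08e-08) on the log2 scale. In marginal zone its values were 55.9 and 59.7 CPM in controls and 8.43 and 10.1 CPM with PhSpMo, a log2 fold change of -2.71 ± 0.17 (adjusted p = 9.63e-12). All 4 treated libraries were below their controls. LOC108698345 did likewise, from 269 and 307 to 169.9 and 104 CPM in ectoderm and from 20.2 and 23.1 to 2.04 and 3.75 CPM in marginal zone. Its log2 fold changes were -1.02 ± 0.12 and -2.98 ± 0.30, with adjusted p of 2.61e-07 and 3.8e-08.

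The pair XB22063314.L and XB22063314.S split in ectoderm. XB22063314.L went from 260.4 and 263 CPM to 191 and 158 CPM with Flag-Pinhead RNA, a log2 fold change of -0.54 ± 0.07 (adjusted p = 1.45e-06). XB22063314.S stood at 178 and 191 CPM in controls and 221 and 164 CPM with the RNA, which overlap, and its log2 fold change was 0.12 ± 0.10 (adjusted p = 0.421). In marginal zone both fell with PhSpMo, XB22063314.L from 22.9 and 20.6 to 5.13 and 5.69 CPM (log2 fold change -2.07, adjusted p = 2.71e-10) and XB22063314.S from 29.6 and 22 to 1.97 and 2.84 CPM (log2 fold change -3.48, adjusted p = 5.05e-11). RefSeq places both genes on the same L chromosome, so their suffixes do not mark L and S subgenomes, and reads of near-identical copies may have been split between them. The difference between their responses was not tested. In each of the 6 genes, and in irg1.L, Flag-Pinhead sample 1 was higher than sample 2, by 1.21 to 1.64 times, while over all members that ratio had a median of 1.01. The samples differed in pnhd.L too, and its part in this was not tested.

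**Figure D3:**
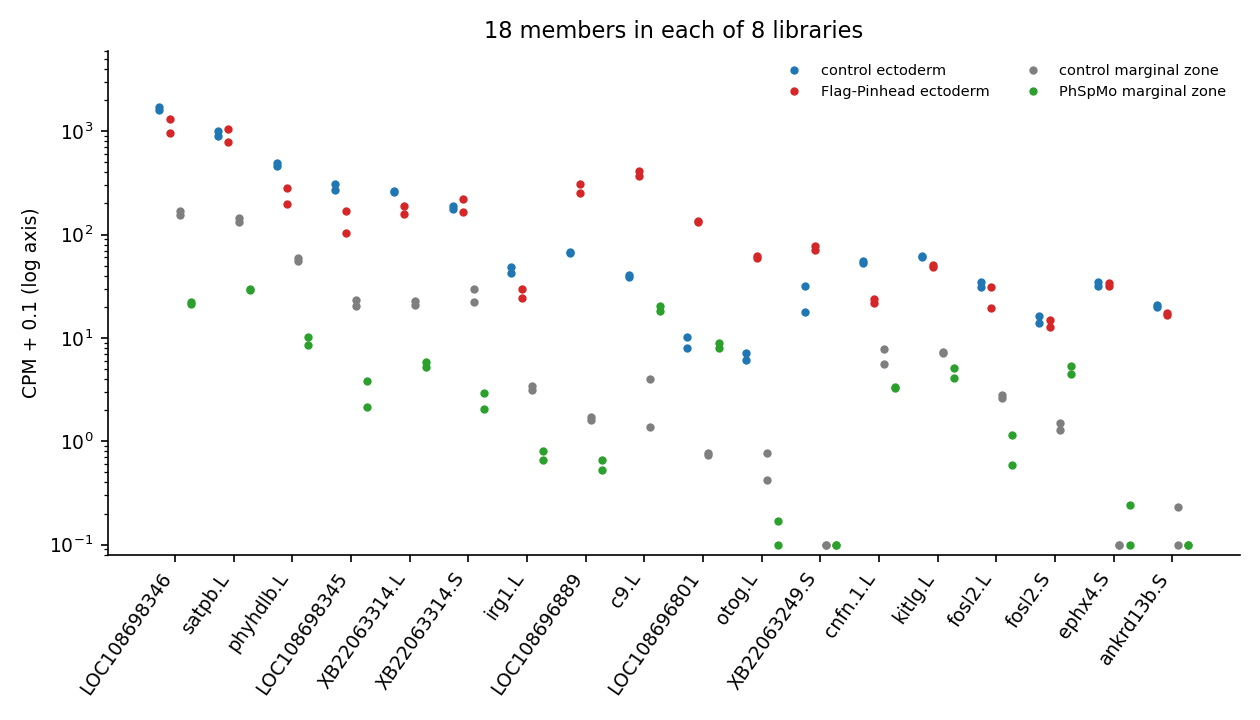
CPM + 0.1 (vertical, log axis) of 18 members in each of the 8 libraries, with 1 point per library and 1 colour per group. The 6 abundant genes and irg1.L, placed first, are lower in both PhSpMo libraries than in control marginal zone, c9.L and LOC108696801 are higher in both treated groups than in their controls, and points at the bottom are libraries with 0 counts.

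Of the 6 abundant genes, 4 are neighbours in the RefSeq gene order. LOC108698345, LOC108698346, satpb.L and phyhdlb.L lie with a less abundant member, irg1.L, within a run of 17 annotated genes, of which 12 are in the deposited table and 11 were tested. irg1.L carries the name acod1lb.L in RefSeq, after the enzyme that makes itaconate in mammalian macrophages. It stood at 42.6 and 48.2 CPM in control ectoderm, 29.7 and 24 CPM with Flag-Pinhead RNA, 3.35 and 3.01 CPM in control marginal zone and 0.702 and 0.555 CPM with PhSpMo. Both treated pairs lay under their controls, with log2 fold changes of -0.70 ± 0.11 and -2.39 ± 0.35 and adjusted p of 1.72e-05 and 1.32e-05.

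The 6 other tested genes of the run are not members. Of these, LOC108698349, phyhdlc.1.L, phyhdlc.2.L and gatd3alc.1.L fell with PhSpMo, and gatd3alc.2.L and gatd3alb.1.L were not called. phyhdlc.2.L, at 5.60 CPM in control ectoderm and 0.960 CPM in control marginal zone, changed by -2.51 in log2 with PhSpMo (adjusted p = 0.00765). LOC108698349 changed by -2.04 there (adjusted p = 0.00544) and rose by 1.58 with Flag-Pinhead RNA (adjusted p = 9.26e-05). gatd3alc.1.L, more abundant in control marginal zone (31.4 CPM) than in control ectoderm (23.7 CPM), changed by only -0.38 with PhSpMo (adjusted p = 0.0394). The run thus holds genes with like levels in both control tissues beside the members. Similar genes side by side can share reads, so their counts are uncertain. Of the 101 members with a place in RefSeq, 17 lay within 15 genes of another member, in 7 groups, and the run of 5 was the largest of them.

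**Figure D4:**
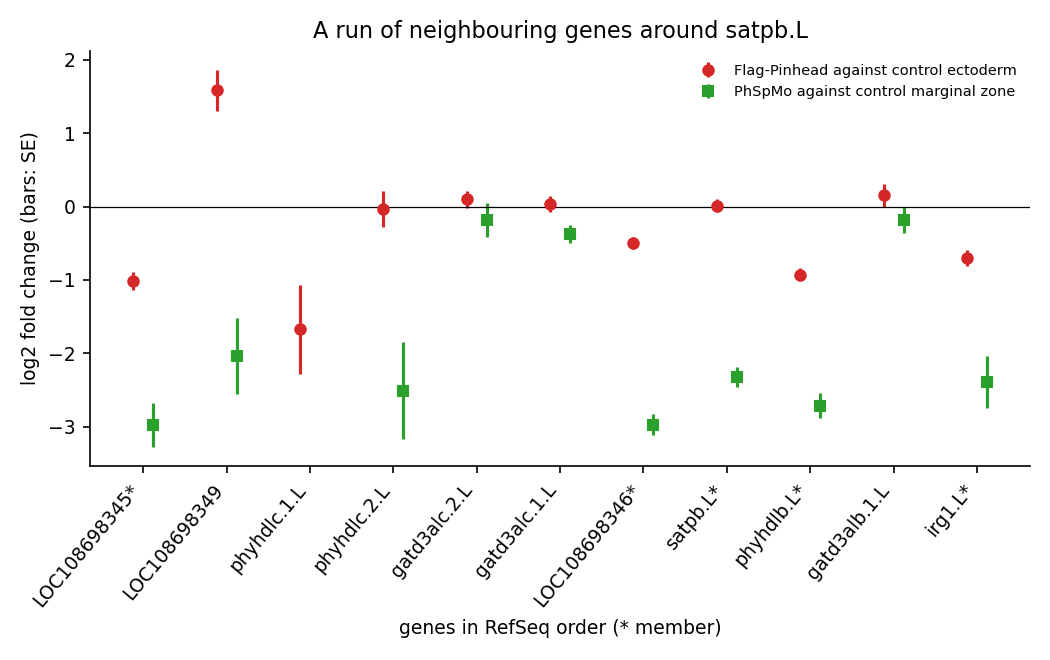
Log2 fold change with its SE for the 11 tested genes of the run around satpb.L, in RefSeq order, with Flag-Pinhead RNA (red) and with PhSpMo (green); stars mark members. The 5 members lie between -3.0 and -2.3 with PhSpMo, gatd3alc.1.L, gatd3alc.2.L and gatd3alb.1.L lie near 0, and phyhdlc.1.L, with 0 counts in the PhSpMo libraries, has no green symbol.

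Among named members, the complement gene c9.L and the mucin-related gene otog.L rose most with Flag-Pinhead RNA. c9.L encodes complement C9, the pore-forming end product of the complement cascade. It stood at 40.3 and 38.6 CPM in control ectoderm and 408 and 369 CPM with Flag-Pinhead RNA, and at 1.27 and 3.94 CPM in control marginal zone and 18.2 and 20.3 CPM with PhSpMo. Both treated pairs lay above their controls without overlap, although the control marginal zone samples differed from each other. The log2 fold changes were 3.35 ± 0.09 (adjusted p = 7.04e-20) with the RNA and 2.75 ± 0.21 (adjusted p = 3.53e-10) with PhSpMo. c3.L encodes complement C3, the protein at the centre of the cascade. It stood at 33 and 28.1 CPM in control ectoderm and 44.2 and 22.7 CPM with Flag-Pinhead RNA, where the sample values enclosed those of the controls and no change was called. Its log2 fold change there was 0.19 ± 0.17, and without Flag-Pinhead sample 1 it was -0.40 with an adjusted p of 0.0258. With PhSpMo it went from 0.877 and 1 to 0.0702 and 0.208 CPM, log2 fold change -2.77 ± 0.98 (adjusted p = 0.0486), and the call was lost in 7 alternatives (adjusted p up to 0.243).

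otog.L is named after otogelin, a mucin-related glycoprotein of the mammalian inner ear, and is the one member on the goblet and small secretory cell list. Its row in the table is distinct from a LOC gene that RefSeq also names otog.L. It stood at 7.05 and 5.99 CPM in control ectoderm and 58.8 and 61.3 CPM with Flag-Pinhead RNA, a log2 fold change of 3.25 ± 0.12 (adjusted p = 3.77e-17). The groups lay far apart, and the samples of each group were close to each other. The 8 genes of that list, otog.L included, summed to 25.7 and 22.1 CPM in control ectoderm and 88.0 and 88.1 CPM with the RNA. Without otog.L the other 7 summed to 18.7 and 16.1 CPM in controls and 29.2 and 26.8 CPM with the RNA, and of the 6 of these tested 2 rose. In marginal zone it had 14 counts in the controls and 1 with PhSpMo, a ratio of 0.0686 (95% interval of counting error 0.00162 to 0.451). That fall was called (adjusted p = 0.00494) and lost in 3 alternatives (adjusted p up to 0.118).

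kitlg.L encodes Kit ligand, a growth factor for pigment, blood and germ cells. It stood at 60.9 and 62.2 CPM in control ectoderm and 48.9 and 50.5 CPM with Flag-Pinhead RNA, a log2 fold change of -0.26 ± 0.08 (adjusted p = 0.014) whose call was lost in 3 alternatives (adjusted p up to 0.129). In marginal zone it went from 7.17 and 7.08 to 4.99 and 3.95 CPM, log2 fold change -0.75 ± 0.16 (adjusted p = 0.00157). tgfb2.S (LOC108717706), a TGF-beta ligand, stood at 10.7 and 10.04 CPM in control ectoderm and 8.03 and 10.3 CPM with the RNA, values that overlap. It was called in neither arm, with log2 fold changes of -0.14 ± 0.17 and -1.22 ± 0.68. fucolectin.S, named for a fucose-binding lectin, had 8 counts in control marginal zone and 0 with PhSpMo, so it was at least 2.78-fold lower against a floor of 3 counts over the group. The call (adjusted p = 0.0244) was lost in 4 alternatives (adjusted p up to 0.228).

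post3.S (LOC108703074), XB22063249.S (LOC108703073) and LOC108703072 had 0 counts in all 4 marginal zone libraries and rose in Flag-Pinhead ectoderm. XB22063249.S went from 17.8 and 31.5 CPM to 77 and 70.9 CPM, log2 fold change 1.64 ± 0.15 (adjusted p = 1.97e-09). post3.S went from 6.54 and 13.1 CPM to 33 and 29.3 CPM, log2 fold change 1.73 ± 0.19 (adjusted p = 6.9e-08). LOC108703072 went from 13.4 and 22.5 CPM to 59 and 56.1 CPM, log2 fold change 1.74 ± 0.14 (adjusted p = 5.45e-10). In each, control sample 2 was higher than control sample 1, and both Flag-Pinhead libraries were above both. post3.S overlaps XB22063249.S in RefSeq, and strand was not stated for the counting, so reads from the stretch they share cannot be assigned with certainty. The extent of the overlap was not examined.

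By symbol, 283 transmembrane receptors and synaptic proteins were tested, of which 53 rose and 29 fell with Flag-Pinhead RNA and 14 rose and 33 fell with PhSpMo. The 8 members among them include ephx4.S, which only its symbol puts there. With the RNA syt1.L rose, neto1.L and gpr151.L fell and the other 5 were not called, and with PhSpMo syt1.L fell. syt1.L encodes synaptotagmin 1, the calcium sensor of synaptic vesicle release. It rose with Flag-Pinhead RNA from 27.3 and 22.6 to 53.7 and 49.2 CPM, log2 fold change 1.09 ± 0.11 (adjusted p = 6.41e-09), and fell with PhSpMo from 3.35 and 4.08 to 1.26 and 0.555 CPM, log2 fold change -2.11 ± 0.30 (adjusted p = 9.7e-06). Its groups did not overlap in either arm. neto1.L (LOC108719172), named for an auxiliary subunit of kainate receptors, fell from 12.7 and 12.9 to 6.04 and 6.5 CPM with the RNA, log2 fold change -0.99 ± 0.17 (adjusted p = 8.5e-05), and had 0 and 1 counts in control and PhSpMo marginal zone. tmem132e.S (LOC108708935) stood at 27.6 and 21.3 CPM in control ectoderm and 18.6 and 22.3 CPM with the RNA, chrna7.S (LOC108712944), a nicotinic acetylcholine receptor subunit, at 9.18 and 9.52 CPM in controls and 6.37 and 9.29 CPM with the RNA, and ptchd1.S (LOC108709336) at 12.1 and 10.7 CPM in controls and 10.1 and 10.8 CPM with the RNA. The groups of all 3 overlapped and none was called. gpr151.L (LOC108710936), an orphan G protein-coupled receptor, went from 6.9 and 6.96 to 3.78 and 4.89 CPM, log2 fold change -0.63 ± 0.22 (adjusted p = 0.0344), lost in 4 alternatives (adjusted p up to 0.257). Of members outside that list, ghr.L, the growth hormone receptor, and pkd2l1.L (LOC108696201), a cation channel, were called in neither arm. itga3.L, an integrin subunit that binds laminin, rose from 25.2 and 26.1 to 37.9 and 35.9 CPM, log2 fold change 0.58 ± 0.10 (adjusted p = 8.54e-05).

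Among transporters, atp13a-like.L (LOC108716994), named for P-type ATPases, rose with Flag-Pinhead RNA from 14.6 and 15.3 to 49.3 and 39.6 CPM, log2 fold change 1.62 ± 0.12 (adjusted p = 5.68e-11). Both treated libraries were far above both controls. It was not called with PhSpMo (log2 fold change -0.73). slc30a10.S (LOC108717705), a manganese transporter in mammals, stood at 23 and 22.2 CPM in control ectoderm and 31.1 and 24.7 CPM with the RNA, a log2 fold change of 0.35 ± 0.12 (adjusted p = 0.0326) whose call was lost in 5 alternatives (adjusted p up to 0.49). It fell with PhSpMo, from 2.87 and 2.54 to 1.26 and 1.6 CPM, log2 fold change -0.98 ± 0.30 (adjusted p = 0.0219), lost in 3 alternatives (adjusted p up to 0.129).

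By symbol, 367 enzymes of lipid, xenobiotic and small-molecule metabolism were tested, of which 59 rose and 29 fell with Flag-Pinhead RNA and 19 rose and 32 fell with PhSpMo. Of the 5 members among them, fut3.L rose and rdh9 fell with the RNA, ephx4.S, ca10.L and cyp2e1.L were not called, and 0 were called with PhSpMo. ephx4.S (LOC108715663), named for an epoxide hydrolase, had the highest ratio of all members: it stood at 34.8 and 31.9 CPM in control ectoderm and had 0 counts in control marginal zone, so it was at least 307-fold higher in ectoderm against 3 counts over the group. Flag-Pinhead RNA left it at 34.2 and 31.8 CPM, values that overlap those of the controls, with a log2 fold change of 0.03 ± 0.10 (adjusted p = 0.868). bco2l.L (LOC108696498), which like fah.L, idh2.S and degs3.S is not on that list and is named for a carotenoid-cleaving oxygenase, went from 36.2 and 21.8 to 51.7 and 38.2 CPM. Its log2 fold change was 0.68 ± 0.15 (adjusted p = 0.00133), and the call was lost in 2 alternatives (adjusted p up to 0.229). rdh9, a retinol dehydrogenase by name, fell from 29.8 and 28.8 to 19 and 19.9 CPM, log2 fold change -0.54 ± 0.11 (adjusted p = 0.000392), and stood at 4.38 and 4.34 CPM in control marginal zone and 5.55 and 5.9 CPM with PhSpMo, with no call (log2 fold change 0.32). fah.L, the last enzyme of tyrosine breakdown, stood at 20.9 and 24 CPM in control ectoderm and 17.8 and 21.7 CPM with the RNA and was called in neither arm. idh2.S, a mitochondrial isocitrate dehydrogenase, was not called either. degs3.S (LOC108700206), of the sphingolipid desaturase family, fell with PhSpMo from 1.2 and 0.668 to 0.14 and 0.347 CPM, log2 fold change -1.94 ± 0.59 (adjusted p = 0.0217), lost in 2 alternatives (adjusted p up to 0.222).

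By symbol, 809 transcription regulators were tested, of which 203 rose and 103 fell with Flag-Pinhead RNA and 72 rose and 191 fell with PhSpMo. The 2 members among them, fosl2.L and fosl2.S (LOC108717669), are the 2 copies of a Fos-family subunit of AP-1. In ectoderm neither was called: fosl2.L stood at 30.8 and 34.4 CPM in controls and 30.8 and 19.4 CPM with Flag-Pinhead RNA, and fosl2.S at 16.1 and 13.8 CPM in controls and 12.6 and 14.7 CPM with the RNA. In marginal zone they moved in opposite directions. fosl2.L fell from 2.55 and 2.67 to 0.492 and 1.04 CPM, log2 fold change -1.83 ± 0.42 (adjusted p = 0.00248), and fosl2.S rose from 1.2 and 1.4 to 4.42 and 5.2 CPM, log2 fold change 1.801 ± 0.27 (adjusted p = 1.68e-05). Neither copy's groups overlapped, and both calls held in every alternative run on single genes. Outside that list, vgll2.S (LOC108717921), lmo2.L (LOC108713784), tox2.L and mab21l1.S (LOC108709944), all named for transcription factors, cofactors or developmental regulators, were called in neither arm. socs3l.L (LOC108696746), named for a feedback inhibitor of cytokine signalling, stood at 84.9 and 83.5 CPM in control ectoderm, 113 and 79.1 CPM with the RNA, 14.1 and 13.1 CPM in control marginal zone and 10.6 and 9.64 CPM with PhSpMo. Its ectoderm values overlapped and its marginal zone values did not, and neither change was called (adjusted p = 0.0804 and 0.0719).

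By symbol, 229 cytoskeleton and motor genes were tested, of which 43 rose and 21 fell with Flag-Pinhead RNA and 27 rose and 19 fell with PhSpMo. The 3 members among them, ankrd13b.L, ankrd13b.S and actr10.L, were called in neither arm. Only their symbols put the 2 ankrd13b copies on that list. The genes of the cell surface and actin cytoskeleton named next are outside that list. cnfn.1.L is named for cornifelin, a protein of the cornified envelope in mammalian skin. It fell with Flag-Pinhead RNA from 52.4 and 55 to 23.6 and 21.8 CPM, log2 fold change -1.19 ± 0.10 (adjusted p = 1.01e-09), and with PhSpMo from 7.65 and 5.54 to 3.16 and 3.26 CPM, log2 fold change -1.10 ± 0.21 (adjusted p = 0.000311). The groups did not overlap in either arm. afap1l2.L, named for an actin filament-associated adaptor, fell from 52.9 and 52.5 to 41.7 and 29.6 CPM with the RNA, log2 fold change -0.51 ± 0.11 (adjusted p = 0.00107), and from 7.17 and 7.75 to 3.37 and 4.58 CPM with PhSpMo, log2 fold change -0.98 ± 0.22 (adjusted p = 0.00214). eps8l1.L, of a family of actin regulators, went the other way in ectoderm, rising from 17.8 and 16.2 to 33.9 and 27.5 CPM, log2 fold change 0.90 ± 0.13 (adjusted p = 3.16e-06). It fell with PhSpMo from 1.75 and 2.07 to 0.773 and 0.555 CPM, log2 fold change -1.60 ± 0.38 (adjusted p = 0.00324), and lost that call in 1 alternative (adjusted p = 0.0576). sh3d21.L, an SH3 domain gene, rose from 5.83 and 6.22 to 13.5 and 14.5 CPM with the RNA, log2 fold change 1.26 ± 0.18 (adjusted p = 4.31e-06). The cilium gene cfap46.L (LOC108696139) stood at 40.7 and 36.7 CPM in control ectoderm and 42.3 and 37.7 CPM with the RNA, and actr10.L, a dynactin subunit on the list, at 24.4 and 22.2 CPM in controls and 18.6 and 19.5 CPM with the RNA. Neither was called in either arm.

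The GTPase gene rasl10b.S (LOC108709618) rose in marginal zone, from 0.797 and 0.601 to 2.11 and 1.804 CPM, log2 fold change 1.42 ± 0.39 (adjusted p = 0.0109), a call lost in 2 alternatives (adjusted p up to 0.14). In ectoderm it stood at 8.16 and 9.47 CPM in controls and 8.43 and 11.5 CPM with Flag-Pinhead RNA, with no call. MGC82778 rose with PhSpMo from 3.35 and 2.67 to 5.41 and 4.44 CPM, log2 fold change 0.65 ± 0.21 (adjusted p = 0.0318), lost in 3 alternatives (adjusted p up to 0.279). nxpe4.S rose from 78.3 and 82.6 to 121 and 103 CPM in ectoderm, log2 fold change 0.53 ± 0.08 (adjusted p = 8.08e-06), and fell from 4.94 and 3.94 to 1.76 and 2.57 CPM in marginal zone, log2 fold change -1.10 ± 0.25 (adjusted p = 0.00195). Its values were apart in both arms.

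The largest rise in each arm, and the largest fall with Flag-Pinhead RNA, belonged to members with only a LOC identifier. LOC108696801 stood at 7.81 and 10.2 CPM in control ectoderm and 137 and 132 CPM with Flag-Pinhead RNA, the largest rise among the members, at 3.95 ± 0.10 (adjusted p = 1.18e-20). It also rose with PhSpMo, from 0.637 and 0.668 to 7.94 and 8.81 CPM, log2 fold change 3.59 ± 0.27 (adjusted p = 1.87e-10), and the samples of each group lay close together. LOC108696889 rose from 68.2 and 66 to 306 and 254 CPM in ectoderm, log2 fold change 2.11 ± 0.08 (adjusted p = 1.74e-17), and fell from 1.51 and 1.6 to 0.421 and 0.555 CPM in marginal zone, log2 fold change -1.74 ± 0.46 (adjusted p = 0.00808), a call lost in 2 alternatives (adjusted p up to 0.0799). LOC108715896 had the largest fall with the RNA, from 28 and 28.1 to 9.75 and 6.71 CPM, log2 fold change -1.71 ± 0.16 (adjusted p = 2.15e-09). It also fell with PhSpMo, from 1.04 and 1.74 to 0.562 and 0.139 CPM, log2 fold change -2.07 ± 0.50 (adjusted p = 0.00396), lost in 2 alternatives (adjusted p up to 0.133). LOC108696018, a pseudogene in RefSeq, rose from 61.9 and 81.6 to 125 and 92.3 CPM, log2 fold change 0.66 ± 0.11 (adjusted p = 5.16e-05). In marginal zone it had 59 counts in controls and 2 with PhSpMo, a ratio of 0.0326 (95% interval of counting error 0.00385 to 0.123; adjusted p = 0.000137).

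LOC108701228, hsp47, ttc22.L, LOC108709462, fam177b.L, fut3.L, gdpd2.L and MGC53311 rose with Flag-Pinhead RNA, with log2 fold changes of 0.34 to 0.99. LOC108707783, LOC108718345, LOC108700404, LOC108704007, LOC108715220, LOC108700419, mid1ip1.S and MGC84586 fell with it, with log2 fold changes of -0.85 to -0.45. With PhSpMo, MGC53311, fam177b.L, LOC108700419 and LOC108718345 fell, with log2 fold changes of -2.20, -2.08, -1.88 and -0.75. Of these calls with the RNA, those of fam177b.L, fut3.L and LOC108707783 were lost in 5 alternatives, those of gdpd2.L, MGC53311, mid1ip1.S and MGC84586 in 4, that of LOC108704007 in 3, that of ttc22.L in 2 and those of hsp47, LOC108700419 and LOC108715220 in 1, with adjusted p up to 0.794. With PhSpMo the call of LOC108718345 was lost in 9 alternatives (adjusted p up to 0.243) and that of fam177b.L in 2 (adjusted p up to 0.296).

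A part of the members was close to absent from control marginal zone. In 21 members the 2 control marginal zone libraries held at most 3 counts together, and in 8 of these they held 0. Their means in control ectoderm ran from 5.18 CPM for ubl5.L to 33.4 CPM for ephx4.S. With PhSpMo, 19 of the 21 again had at most 3 counts, and the highest count was 7, for LOC108696915. With Flag-Pinhead RNA 5 of the 21 rose, against 15.5% of all genes tested, neto1.L fell, against 11.9%, and 15 were not called. The 5 rises include post3.S, XB22063249.S and LOC108703072, which may not be separate evidence. Those not called include ephx4.S, tmem132e.S, ptchd1.S, vgll2.S, whrn.S (LOC108700518) and both copies of ankrd13b. ankrd13b.S (LOC108709174) stood at 20.9 and 19.9 CPM in control ectoderm and 17.2 and 16.7 CPM with the RNA, and ankrd13b.L at 13.5 and 14 CPM in controls and 10.5 and 14.7 CPM with the RNA.

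Of the 67 members named as an L or S copy, 37 had the gene of the other suffix in the table. In the pairs ankrd13b, fosl2 and XB22063314 both are members, though RefSeq puts both genes of the XB22063314 pair on an L chromosome. The other 31 partners are by definition short of the rule's level or ratio. Of these, 18 were under 1 CPM in both control tissues, where the 0.5 CPM added keeps the ratio near 1, so that their tissue difference could not be read. The 9 partners with at least 5 CPM in control ectoderm had ratios of 1.12 to 4.31, where the rule asked for 6. For idh2, the S copy stood at 74.98 CPM in control ectoderm and 8.24 CPM in control marginal zone, and the L copy at 664 and 553 CPM. For ubl5, a ubiquitin-like protein, the L copy stood at 5.18 and 0.0732 CPM, and the S copy at 55.6 and 42.7 CPM. For naga, a lysosomal glycosidase, the S copy stood at 19.7 and 1.32 CPM, and the L copy at 24.3 and 13.5 CPM. For itga3, the L copy stood at 25.6 and 3.59 CPM, and the S copy at 40.8 and 30.1 CPM. The member of each pair was chosen for its ratio, so these differences within pairs are a description. Reads of similar homeologs may have been split between copies.

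**Figure D5:**
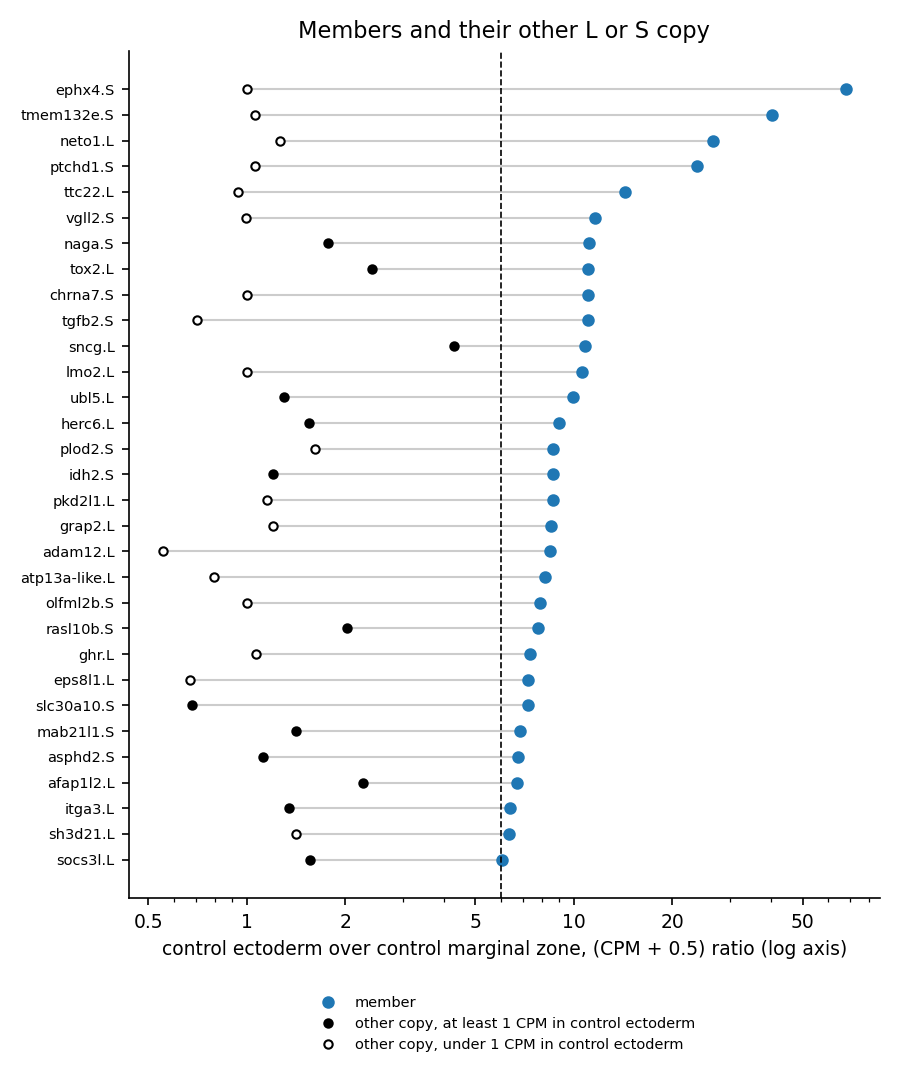
Ratio of control ectoderm to control marginal zone, after adding 0.5 CPM (horizontal, log axis), for the 31 members whose other L or S copy is in the table but is not a member. Blue points are the members, right of the threshold of 6, and black points their partners, of which sncg.S lies closest to it at 4.31; open points are partners under 1 CPM in control ectoderm.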

How the data were processed

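Polyadenylated RNA of 8 explant samples was sequenced on a HiSeq2000, per the labels' protocols. The deposited table holds raw counts per gene, not normalized by the authors, in 16 columns that are 2 to a sample. CASAVA 1.8, HISAT2, SAMtools and HTSeq were used per the submitters' processing notes, and their order and options, like the genome build, were not given in the sources used here. With 2 mistyped column names, control marginal zone sample 1 was the only sample lacking its own columns, and it received them.

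Columns were summed per sample, and CPM were taken over column totals without pnhd.L and LOC108706889. Only the CPM of pnhd.L itself were taken over whole totals. Of 24313 LOC identifiers, 21071 were found in a gene table from RefSeq (assembly X. laevis v10.1), which gave 11186 of them a name; the rule on excluded symbols was applied to these names too. The members and gene lists were chosen with earlier results of these data known. The table also gave gene order, overlaps and chromosomes. Its coordinates and sequences are not printed, as the files name no build.

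The mean chi-square of counts between samples, over genes with at least 50 counts, was 1.43 for the PhSpMo pair, against 1.29 to 1.46 between columns of other samples, 2.05 and 2.27 for the control pairs and 11.9 for the Flag-Pinhead pair, and it was 2.38 and 2.44 between the columns of each PhSpMo sample. PhSpMo was therefore summed to 1 unit. All units entered a single fit (edgeR 4.0.16 under R 4.3.3) after filterByExpr with a minimum of 10 counts, with TMM factors, 1 mean per group, quasi-likelihood F tests, and Benjamini-Hochberg adjustment over all genes tested at 0.05. The fit was also run on counts simulated with 1 spread per gene for all groups. That run cannot show the error rate where groups differ in spread, as the Flag-Pinhead pair does. The log2 fold changes are edgeR's, and SE is the log2 fold change over the square root of F. Each "alternative" named beside a gene is a refit with DESeq2 1.42.0, no filter, no TMM, pnhd left out, other PhSpMo units, the replicate block, or 1 sample left out. Intervals and floors of 3 counts cover counting error only. PCR copies are not independent molecules, and genes under 1 CPM rest on few counts.

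Named genes are taken from those with the highest ratio, the highest control ectoderm level, the largest called changes in each arm, calls in both arms, the main members of each role, and L and S pairs. Genes with only a LOC identifier, the 6 abundant genes, irg1.L and the other genes of their run were singled out after their values were seen. Roles were matched by the start of the symbol.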

Additional observations from a re-analysis of the deposited data

How the results depend on the processing

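Groups of 2 samples, shallow counts in marginal zone and choice on the same controls limit these results: 19 members are at the floor there, and falls of low members rest on few counts. Of the calls, 27 of 44 with Flag-Pinhead RNA and 19 of 31 with PhSpMo held in every refit. When 1 sample was left out, the counts with the RNA, 24 rises and 20 falls, were lowest without a control ectoderm sample. Rises were then most numerous without Flag-Pinhead sample 2. Those with PhSpMo, 5 and 26, were lowest without control marginal zone sample 2, and rises were as few without PhSpMo sample 1. Falls were most numerous without either Flag-Pinhead sample. The refits with the lowest counts also called fewer genes over all genes tested. The spread of a group left with 1 sample is taken from the other groups. DESeq2 called 17 rises and 12 falls with the RNA, against 10.1% and 7.40% of all genes. The cause of these differences was not tested.

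Other rules give other numbers of members. A ratio of at least 4 gave 179 members, all higher in treated ectoderm. Of these, 39 rose and 32 fell with the RNA, and 6 rose and 51 fell with PhSpMo. A ratio of at least 12 gave 35 members, all higher in treated ectoderm. Of these, 9 rose and 5 fell with the RNA, and 1 rose and 8 fell with PhSpMo. Over all genes tested 15.5% rose and 11.9% fell with the RNA, and 8.22% rose and 10.5% fell with PhSpMo. Of all genes tested, 32.2% were higher in treated ectoderm. A control ectoderm mean of at least 20 CPM gave 41 members, all higher in treated ectoderm, of which 12 rose and 14 fell with the RNA and 2 rose and 21 fell with PhSpMo, against 15.1%, 22.1%, 9.89% and 17.5% of all genes at that level. The number of members was 75 with 1 CPM added in place of 0.5. Members chosen on samples 1 of both controls numbered 119, of which 100 are among the 109; against samples 2 alone, 20 rose and 15 fell with the RNA, beside 9.54% and 6.003% of all genes in that fit, and 3 rose and 29 fell with PhSpMo, beside 3.53% and 5.29%.

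The median log2 fold change with the RNA was -0.14 under total counts without TMM, which moved the median of all genes to -0.11. With PhSpMo the median of -0.50 became -0.47 with no filter, -0.42 without TMM, -0.98 at 20 CPM, -0.53 for members chosen on samples 1, and between -0.55 and -0.26 when 1 sample was left out. It was -0.55 for members above the floor, an alternative chosen after seeing the data, as were the 20 falls without the 6 members above 100 CPM, the 19 without irg1.L as well, the PhSpMo columns regrouped by their final digit, and the excluded symbols read from the table alone.

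Sample numbers did not pair the groups: deviations of same-numbered samples correlated at -0.016 to 0.011. With a replicate block on 8 libraries, 25 members rose and 20 fell with the RNA, against 3480 and 2810 of 21364 genes tested. With PhSpMo 5 members rose and 29 fell, against 2370 and 3123 of these genes, and the PhSpMo median was -0.51. In the main fit 1828 and 2325 of 22241 genes rose and fell with PhSpMo. The direction of satpb.L and c3.L with the RNA turned without Flag-Pinhead sample 1, to -0.24 and -0.40, and they were 0.23 and 0.61 without sample 2.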
